A study of Homo sapiens with 48 samples.

Results

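The 9 genes described here encode parts of the insulin-like growth factor (IGF) and insulin system: the receptors IGF1R and INSR, the receptor substrates IRS1 and IRS2, and the binding proteins IGFBP3, IGFBP4, IGFBP5, IGFBP6 and IGFBP7. They were taken as the rows of the deposited gene count table that carry these symbols, and all 9 were found among its 27978 symbols. The study exposed H1975 cells, an established human non-small cell lung cancer line with mutated EGFR, to gefitinib, an inhibitor of the EGFR kinase, and to 2 preparations, compound kushen injection (CKI) and YFSJ. Its title poses the question of resistance to gefitinib. RNA was sequenced from 48 libraries, 3 for each of 16 groups. Every group mean below is over n = 3 libraries unless libraries are said to be left out.

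Untreated cells were taken at 0 h and at 24 h. The other 14 groups were treated and carry a 24 h label. Of these, 6 received a single agent: gefitinib (50 and 75 µM), CKI (1 and 2 mg/mL) or YFSJ (2.5 and 5 mg/mL). The remaining 8 received each of the 4 pairs of CKI and gefitinib doses, and each of the 4 pairs of YFSJ and gefitinib doses. The untreated cells at 24 h are the control of all 6 groups that received a single agent, and each gefitinib group is the control of 4 combinations, so those comparisons share libraries and are given side by side. All libraries come from 1 cell line, grown in serum-containing medium. The submitters call the 3 libraries of a group biological replicates without saying whether they came from separate cultures, so p-values measure the spread between these libraries.

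IGF1R and INSR are receptor tyrosine kinases that bind IGFs and insulin and phosphorylate the adaptor proteins IRS1 and IRS2, which recruit PI3 kinase and lead to AKT and mTOR. IGF-binding proteins are mostly secreted and hold IGFs outside the cell, and some, IGFBP3 among them, have effects that do not need IGF. In lung cancer cells with mutated EGFR, signalling through IGF1R is a known bypass of EGFR inhibition, and IRS2 is a known target of FOXO factors, which AKT keeps out of the nucleus.

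The promoters of the 3 genes whose group means had the widest ranges among those above 10 CPM are shown because the results below turn on these genes. RefSeq held an entry for 8 of the 9 genes and had none for IGFBP7. Each sequence is the 250 bases before the start of the gene, read 5′ to 3′ on the gene's own strand in GRCh38.p14; capitals mark the motif matches described next. The IRS2 window lies at chr13:109786584-109786833 on the minus strand, that of IGFBP3 at chr7:45921273-45921522 on the minus strand, and that of IGFBP4 at chr17:40443200-40443449 on the plus strand.
IRS2: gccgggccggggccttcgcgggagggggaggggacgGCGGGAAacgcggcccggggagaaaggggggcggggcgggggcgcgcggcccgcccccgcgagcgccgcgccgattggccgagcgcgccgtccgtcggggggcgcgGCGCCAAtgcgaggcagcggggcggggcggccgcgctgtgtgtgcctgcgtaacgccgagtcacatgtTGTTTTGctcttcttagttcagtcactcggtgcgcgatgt
IGFBP3: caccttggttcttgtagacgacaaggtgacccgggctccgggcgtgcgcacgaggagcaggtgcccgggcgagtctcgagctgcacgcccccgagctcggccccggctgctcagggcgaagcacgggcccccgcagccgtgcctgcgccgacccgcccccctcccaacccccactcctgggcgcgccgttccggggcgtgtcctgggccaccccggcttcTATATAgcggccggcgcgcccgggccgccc
IGFBP4: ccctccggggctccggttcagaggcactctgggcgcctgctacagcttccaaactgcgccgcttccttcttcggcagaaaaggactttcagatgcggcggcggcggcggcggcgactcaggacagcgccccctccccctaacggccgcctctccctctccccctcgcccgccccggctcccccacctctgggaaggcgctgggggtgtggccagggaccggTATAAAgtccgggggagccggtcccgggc

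Short motifs were searched on both strands of all 35116 RefSeq promoters of this length, and a match is only a match of letters. IRS2 held TGTTTTG, the core of the insulin response element bound by FOXO factors, at 40 to 34 bases before its start, as did 4.3% of promoters. It also held 2 sequences of E2F sites on the opposite strand, TTCCCGC at 214 to 208 bases (5.52% of promoters) and TTGGCGC at 108 to 102 bases (2.56%), and IRS1 held TTGGCGC at 175 to 169 bases. IGFBP4 carried the TATA box letters TATAAA at 29 to 24 bases before the start (10.7% of promoters). IGFBP3 had the TATA-like TATATA at 30 to 25 bases (3.73%). The FOXO motif TGTTTAC was found in IGFBP6, on the opposite strand at 186 to 180 bases (2.98%), and CACGTG, an E-box, was found in none of the 8 (6.34%). All 8 windows were GC-rich, at 61.2% to 81.2% against a median of 58% over all promoters.

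Library totals ran from 16428398 to 26264162 counts, and values are given as CPM, counts scaled to a common library size after TMM normalisation. A count of 3, taken as the floor of detection, was worth 0.107 to 0.193 CPM. The lung lineage factor NKX2-1 had a median of 44.7 CPM and EGFR of 96.5 CPM, the oestrogen receptor gene ESR1 did not exceed 11 counts and PGR was at 0; this was checked because the catalogue number in the labels is that of the breast cancer line MCF-7. Median levels reached 1 CPM for 10 of 21 listed lung markers and 5 of 12 of luminal breast: the surfactant genes SFTPA1, SFTPB and SFTPC did not exceed 6 counts, and KRT19 (1107 CPM) and XBP1 (190 CPM) of the breast list were expressed. Liver transcripts stood out in 10 libraries, with 2581 to 3557 counts of ALB against 0 to 8 in the other 38: all 3 with YFSJ at 2.5 mg/mL, all 3 with CKI at 2 mg/mL and gefitinib at 75 µM, libraries 1 and 3 of CKI at 2 mg/mL with gefitinib at 50 µM, and libraries 2 and 3 of CKI at 1 mg/mL with gefitinib at 75 µM. Libraries 1 and 2 of the 0 h cells and library 2 of YFSJ at 2.5 mg/mL with gefitinib at 75 µM stood apart from the rest of their own groups by the mitochondrial ribosomal RNA RNR2, at 1.22%, 1.69% and 2.18% of counts against 0.457% in the remaining 0 h library and 0.811% and 0.957% in the other libraries of that combination; over all 48 the share ran from 0.318% to 2.18%. The library kit did not keep strand, so reads of IGFBP7 cannot be told apart from those of POLR2B and IGFBP7-AS1 where their exons overlap on opposite strands; the same applies to IGFBP5 with AC007563.2 and to IRS2 with AL162497.1. In RNA from a whole culture, fewer cells expressing a gene and less of its RNA per cell cannot be told apart.

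All 9 genes passed the filter on low counts. In untreated cells at 24 h, IGFBP6 had the highest level per length, at 129 CPM per kb of its longest coding transcript, followed by IGFBP4 at 54.5 CPM per kb. IGFBP7 and IGFBP3 were at 17.3 and 13.7 CPM per kb. The intracellular substrates were lower, IRS1 at 9.08 and IRS2 at 5.36 CPM per kb, and the receptors lower again, IGF1R at 3.38 and INSR at 3.09 CPM per kb. IGFBP5 was the least abundant of the 9, at 0.333 CPM per kb, which rested on 27 to 59 counts per library. The plot of all libraries shows these genes over the 16 groups.

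**Figure D1:**
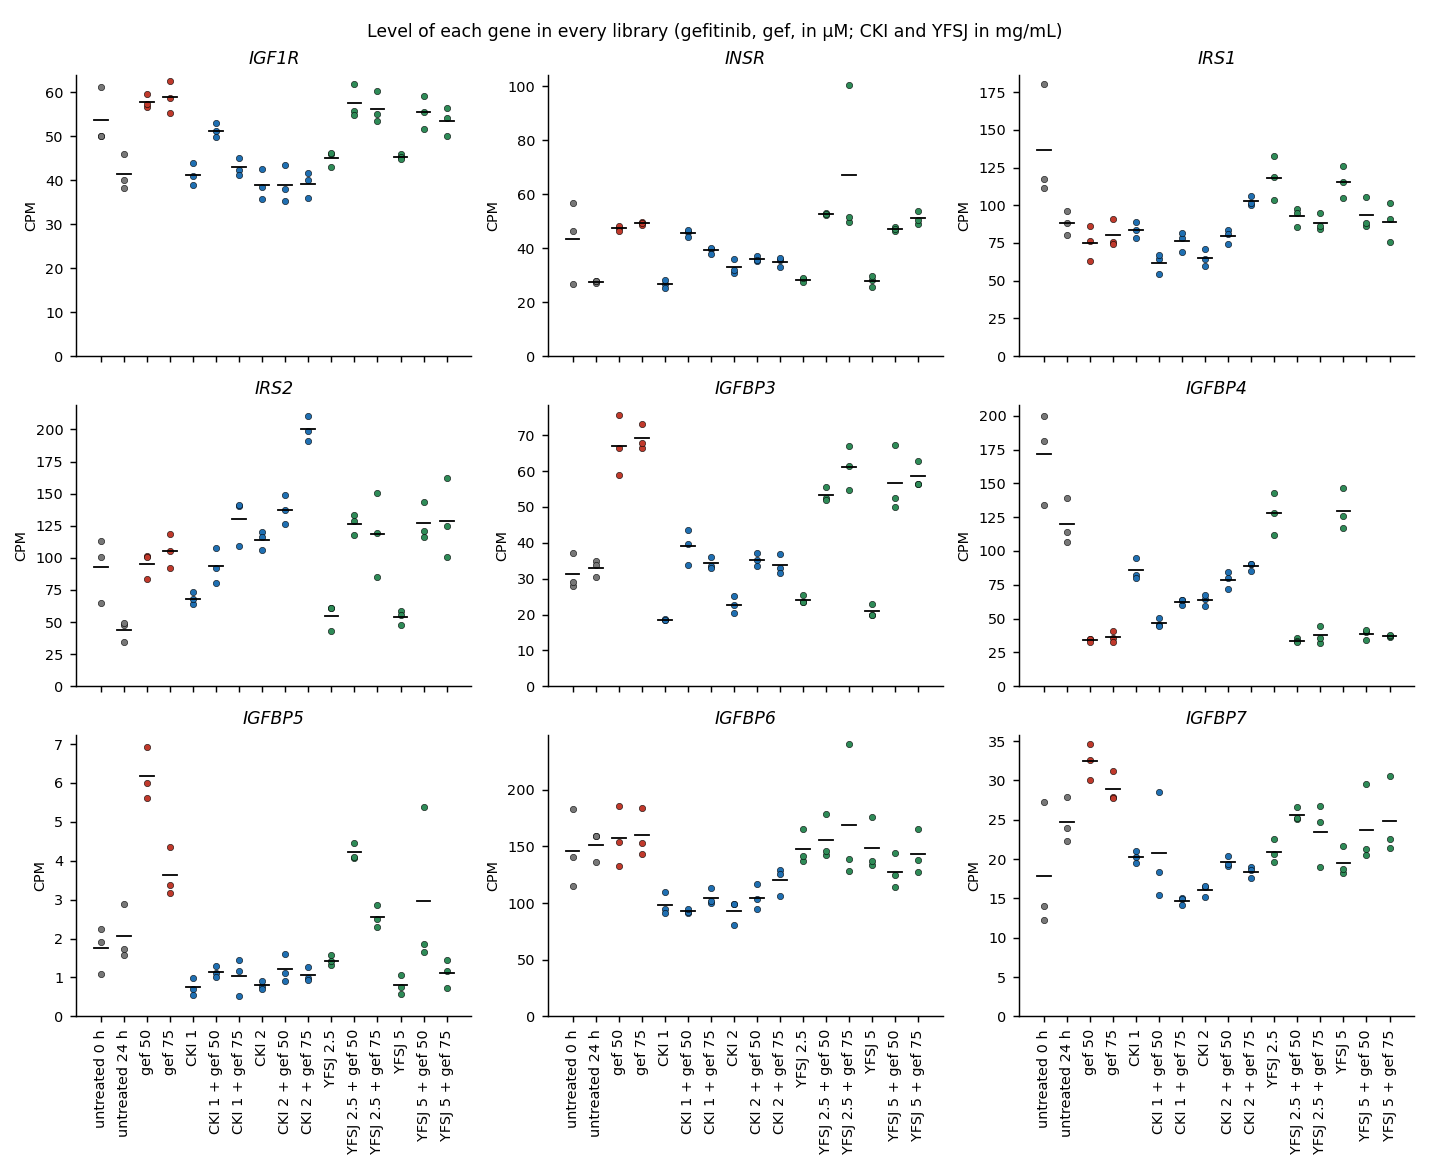
CPM of each of the 9 genes (vertical axes, linear, one scale per gene) in the 48 libraries, by group (horizontal axis); points are libraries and bars are group means. IGFBP4 was low in every group that received gefitinib without CKI, at group means of 33.7 to 38.5 CPM, and IRS2 was highest with CKI at 2 mg/mL and gefitinib at 75 µM, at a mean of 200.1 CPM.

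The comparison of untreated cells at 24 h with 0 h gives the drift of the cultures without any agent. IRS2, an adaptor whose transcript responds to nutrients and insulin, was at 113, 65.0 and 101 CPM at 0 h and at 34.3, 47.4 and 49.2 CPM at 24 h. All 3 libraries at 24 h lay below all 3 at 0 h. It fell by 1.09 ± 0.18 on the log2 scale (adjusted p = 6.77e-05). All fold changes here and below are log2 values ± SE from edgeR's quasi-likelihood test on all 48 libraries, with p adjusted by Benjamini-Hochberg over 15789 genes, and a gene was called at an adjusted p below 0.05.

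From 0 h to 24 h, 5 of the 9 genes fell and none rose, while 14.4% of all genes tested fell and 10.8% rose. The receptor genes were IGF1R, with a change of -0.38 ± 0.09 (adjusted p = 0.00178), and INSR, with -0.64 ± 0.16 (adjusted p = 0.00421). INSR was at 56.7, 46.5 and 26.7 CPM at 0 h and at 27.0, 28.0 and 28.0 CPM at 24 h. Library 3 at 0 h thus lay below the 24 h libraries, and libraries 1 and 2 at 0 h are those with a high RNR2 share. IRS1, the other adaptor, changed by -0.63 ± 0.13 (adjusted p = 0.000518), and IGFBP4, an inhibitory binding protein, by -0.52 ± 0.11 (adjusted p = 0.00105), with overlapping libraries. With library 3 as the only one at 0 h, the IRS2 call was kept, INSR was at 0.034 (adjusted p = 0.985), IGF1R at -0.29 (adjusted p = 0.351), IRS1 at -0.43 (adjusted p = 0.235) and IGFBP4 at -0.18 (adjusted p = 0.803). Without library 1 at 0 h, IGF1R (-0.28, adjusted p = 0.0577), INSR (-0.40, adjusted p = 0.137) and IRS1 (-0.38, adjusted p = 0.0526) were no longer called. IGFBP7 was at 12.2, 14.0 and 27.2 CPM at 0 h with a change of 0.46 ± 0.19 (adjusted p = 0.0669), and was called without library 3 (0.92, adjusted p = 4.77e-05) and with the replicate block (0.48, adjusted p = 0.0289). In a fit of only these 2 groups IRS2 alone of the 9 stayed called. With library-size scaling in place of TMM, the share of all calls that rose went from 42.9% to 62%.

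Gefitinib alone raised the transcripts of both receptors, IRS2, IGFBP3 and IGFBP5, and lowered IGFBP4, at both doses. IGFBP4, which binds IGFs and is cleaved by the protease PAPPA, had the largest change of the 9 genes at either dose. Untreated cells at 24 h had 107, 114 and 139 CPM of IGFBP4, against 35.2, 34.97 and 32.9 CPM at 50 µM and 35.7, 32.4 and 40.6 CPM at 75 µM. No gefitinib library came near an untreated one. RNR2 took 0.655% to 0.886% of counts in the 6 gefitinib libraries and 0.464% to 0.582% in the untreated ones, and its part in the gefitinib results was not tested. The change was -1.80 ± 0.12 at 50 µM (0.286-fold, adjusted p = 4.45e-17) and -1.73 ± 0.12 at 75 µM (0.302-fold, adjusted p = 1.89e-16).

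IGFBP3, the main carrier of IGFs in blood, moved the opposite way. It was at 35.002, 33.7 and 30.5 CPM in untreated cells, at 66.5, 59.0 and 75.7 CPM with 50 µM and at 66.4, 67.9 and 73.1 CPM with 75 µM. Every gefitinib library exceeded every untreated one, and the rise was 1.02 ± 0.11 (adjusted p = 5.62e-11) and 1.06 ± 0.11 (2.09-fold, adjusted p = 1.87e-11). IGFBP5, a binding protein that also attaches to extracellular matrix, rose by 1.56 ± 0.29 at 50 µM (adjusted p = 1.09e-05) and by 0.80 ± 0.30 at 75 µM (adjusted p = 0.0229). Its levels were low throughout, at 2.89, 1.74 and 1.57 CPM untreated, 5.99, 6.92 and 5.62 CPM at 50 µM and 3.39, 4.36 and 3.17 CPM at 75 µM. The call at 75 µM was lost without library 2 at 75 µM (adjusted p = 0.11) and without library 2 (adjusted p = 0.0834) or 3 (adjusted p = 0.116) of the untreated cells.

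The receptors and IRS2 rose together in gefitinib. IGF1R went from 40.1, 46.0 and 38.1 CPM untreated to 55.4, 62.7 and 58.7 CPM at 75 µM, and INSR from 27.0, 28.0 and 28.0 CPM to 48.6, 49.6 and 49.4 CPM. Treated and untreated libraries did not overlap for either receptor, and INSR varied by only 0.544 CPM (SD) at 75 µM. IGF1R rose by 0.48 ± 0.09 at 50 µM (adjusted p = 8.81e-06) and 0.51 ± 0.09 at 75 µM (adjusted p = 3.58e-06). INSR rose by 0.78 ± 0.16 (adjusted p = 0.000105) and 0.83 ± 0.16 (adjusted p = 4.08e-05). IRS2 was at 101, 100.3 and 83.6 CPM at 50 µM and at 106, 91.9 and 119 CPM at 75 µM, all above the untreated libraries. Its rise was 1.13 ± 0.18 (2.18-fold, adjusted p = 2.26e-06) and 1.27 ± 0.18 (2.42-fold, adjusted p = 2.41e-07).

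At each gefitinib dose 5 of the 9 genes rose and 1 fell, where 27.6% of all genes rose at either dose, and 26.8% (50 µM) and 27.1% (75 µM) fell. The median change of the 9 genes was 0.48 at 50 µM and 0.51 at 75 µM, against 0.03 and 0.02 over all genes tested. IRS1 (-0.23 ± 0.13 and -0.13 ± 0.13), IGFBP6 (0.06 and 0.08) and IGFBP7 (0.39 ± 0.18 and 0.23) did not pass the test at either dose. IGFBP6, which prefers IGF-II, was at 154, 185 and 133 CPM at 50 µM and at 136, 159 and 159 CPM untreated, with overlapping libraries. Between 75 and 50 µM edgeR called none of the 9 genes, where 0.0317% of all genes were called; 1 of the 9 had an unadjusted p below 0.05, IGFBP5 at -0.76 ± 0.27 (adjusted p = 1), and DESeq2 called none. With library-size scaling the share of all calls at 50 µM that rose went from 50.8% to 61.1%, and the 6 members called kept their direction. IGFBP7 at 50 µM was called with that scaling (0.50, adjusted p = 0.0294), with only the compared libraries (adjusted p = 0.0102), without the 3 libraries that stood apart (adjusted p = 0.0109) and with the replicate block (adjusted p = 0.0347).

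CKI alone raised IRS2 and lowered 5 binding proteins and IRS1 at 2 mg/mL, and it left the receptor transcripts below the threshold of the test. IRS2 was at 64.0, 73.3 and 67.7 CPM with 1 mg/mL and at 106, 120 and 116 CPM with 2 mg/mL. These 2 groups did not overlap with each other or with the untreated cells. The rise over untreated cells was 0.65 ± 0.18 at 1 mg/mL (adjusted p = 0.00652) and 1.39 ± 0.18 at 2 mg/mL (2.62-fold, adjusted p = 6.15e-08). Without library 1 of the untreated cells the lower dose missed the threshold (0.50, adjusted p = 0.0643).

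IGFBP4 was at 82.1, 94.9 and 80.4 CPM with CKI at 1 mg/mL and at 64.7, 67.4 and 59.4 CPM at 2 mg/mL, in both cases below every untreated library. It fell by 0.48 ± 0.12 (adjusted p = 0.00115) and by 0.91 ± 0.12 (0.533-fold, adjusted p = 1.16e-08). IGFBP3 was at 18.4, 18.7 and 18.4 CPM at 1 mg/mL and at 22.7, 20.3 and 25.1 CPM at 2 mg/mL. Both groups lay below the untreated cells, and the lower dose gave the lower level. The change was -0.84 ± 0.11 (adjusted p = 1.07e-07) and -0.54 ± 0.11 (adjusted p = 6.08e-05), the opposite direction to gefitinib.

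The remaining binding proteins were lower in CKI as well. IGFBP6 was at 94.6, 109 and 91.3 CPM at 1 mg/mL and at 99.5, 99.6 and 81.0 CPM at 2 mg/mL, under all untreated libraries (-0.62 ± 0.17, adjusted p = 0.00469, and -0.70 ± 0.17, adjusted p = 0.000689). IGFBP5 was at 0.556 to 0.989 CPM over the 6 libraries, on 13 to 21 counts each, and fell by 1.48 ± 0.36 (adjusted p = 0.00158) and 1.39 ± 0.36 (adjusted p = 0.00118). IGFBP7, which in contrast to the others binds IGFs weakly, was at 16.4, 15.2 and 16.6 CPM at 2 mg/mL against 23.9, 22.3 and 27.9 CPM untreated (-0.62 ± 0.19, adjusted p = 0.00541), and was not called at 1 mg/mL (-0.29). IRS1 fell at 2 mg/mL by 0.44 ± 0.13 (adjusted p = 0.00487). With library-size scaling IRS1 (-0.23, adjusted p = 0.111) and IGFBP7 (-0.42, adjusted p = 0.0785) were no longer called at 2 mg/mL.

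Thus 1 of the 9 genes rose and 4 fell at 1 mg/mL, where 13.2% and 14.7% of all genes did, and 1 rose and 6 fell at 2 mg/mL, where 24.1% rose and 27.1% fell. The median of the 9 was -0.54 at 2 mg/mL and -0.01 over all genes; library-size scaling moved the latter by 0.20 and the share of calls that rose from 47.1% to 69% (at 1 mg/mL, from 47.2% to 64.5%). IGF1R differed from untreated cells by -0.09 ± 0.09 at 2 mg/mL (95% interval -0.27 to 0.09, adjusted p = 0.435). INSR was at 31.0, 31.8 and 36.2 CPM and differed by 0.25 ± 0.16 (adjusted p = 0.199); it was called with library-size scaling (0.46, adjusted p = 0.00946), with only the compared libraries (0.28, adjusted p = 0.0266) and without the 3 libraries that stood apart by RNR2 (0.30, adjusted p = 0.000184). The CKI libraries at 2 mg/mL had 0.919% to 1.16% of RNR2 against 0.464% to 0.582% in the untreated cells, and its part in these changes was not tested.

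Between the 2 CKI doses 2 of the 9 genes were higher at 2 mg/mL and 2 lower, where 15.1% and 17.6% of all genes were (46.3% of calls higher, 69.9% with library-size scaling). IRS2 differed by 0.74 ± 0.18 (adjusted p = 0.00156) and IGFBP4 by -0.43 ± 0.12 (adjusted p = 0.00394). IRS1 (-0.36 ± 0.13, adjusted p = 0.0296) and IGFBP3 (0.29 ± 0.11, adjusted p = 0.0416) were also called, each losing the call when single libraries were left out, IRS1 in 4 of 6 cases and IGFBP3 in 5 of 6; IRS1 also lost it with library-size scaling (adjusted p = 0.129). INSR (0.30, adjusted p = 0.16) was called with that scaling (0.42, adjusted p = 0.0276).

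YFSJ alone lowered IGFBP3 and, at the higher dose, IGFBP5. IGFBP3 was at 23.5, 25.5 and 23.6 CPM with 2.5 mg/mL and at 19.95, 19.96 and 22.8 CPM with 5 mg/mL, below all untreated libraries. The change was -0.45 ± 0.11 (adjusted p = 0.0136) and -0.66 ± 0.11 (adjusted p = 8.22e-05). The libraries at 2.5 mg/mL all carry liver transcripts; with a term for these transcripts the value was -0.34 (adjusted p = 0.427), and the call was also lost without library 1 or 2 of the untreated cells or library 1 or 3 at 2.5 mg/mL. No library at 5 mg/mL carries them. IGFBP5 was at 0.753, 1.07 and 0.586 CPM with 5 mg/mL, on 13 to 25 counts, and fell by 1.37 ± 0.36 (adjusted p = 0.0134), a call lost without library 1 of the untreated cells (-1.03, adjusted p = 0.159) or library 1 (adjusted p = 0.0645) or 3 (adjusted p = 0.0823) of the YFSJ group.

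At 2.5 mg/mL 1 of the 9 genes fell and none rose, where 0.918% of all genes fell and 2.01% rose (68.7% of calls rose, 83.3% with library-size scaling). At 5 mg/mL 2 fell, where 2.20% fell and 4.28% rose. IRS1 was at 119, 103 and 132 CPM with 2.5 mg/mL and at 126, 105 and 115 CPM with 5 mg/mL, all above the untreated 88.0, 80.0 and 96.3 CPM, at 0.42 ± 0.13 (adjusted p = 0.0614) and 0.39 ± 0.13 (adjusted p = 0.0613). These missed the threshold here and passed it with DESeq2, and without the 3 libraries that stood apart (adjusted p = 0.00811 and 0.0112 for IRS1). IGFBP4 differed from untreated cells by 0.09 ± 0.11 and 0.11 ± 0.11, IGF1R by 0.12 ± 0.09 and 0.13 ± 0.09, and IRS2 by 0.33 ± 0.18 and 0.30 ± 0.18. Between the 2 YFSJ doses edgeR called none of the 9 genes, where 0.374% of all genes were called; IGFBP5 (-0.83 ± 0.37) was the 1 gene with an unadjusted p below 0.05, and DESeq2 called none.

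**Figure D2:**
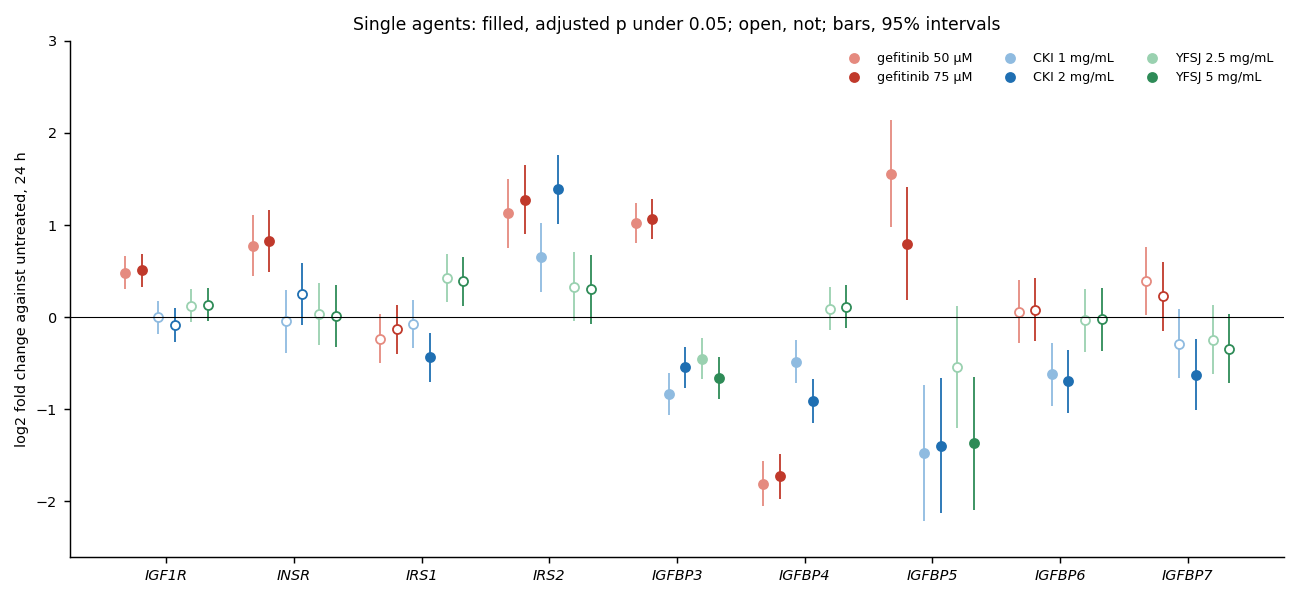
Log2 fold change of the 9 genes (horizontal axis) against untreated cells at 24 h (vertical axis, bars are 95% confidence intervals) for the 6 single-agent groups; filled symbols have an adjusted p below 0.05. Both gefitinib doses lie above 0 for IGFBP3 and both doses of CKI and of YFSJ lie below it, while IRS2 lies above 0 in gefitinib and in CKI.

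Adding CKI to gefitinib brought IGFBP4 up and IGFBP3, IGFBP5, IGFBP6 and IGFBP7 down relative to gefitinib alone in all 4 dose pairs, and IGF1R down in 3 of them. IGFBP4 was at 60.3, 63.8 and 63.6 CPM with CKI at 1 mg/mL and gefitinib at 75 µM, and at 85.1, 90.009 and 90.7 CPM with CKI at 2 mg/mL and gefitinib at 75 µM. All of these exceeded the 32.4 to 40.6 CPM of gefitinib at 75 µM alone, and stayed below the 107 to 139 CPM of untreated cells. The rise was 0.79 ± 0.12 (adjusted p = 1.01e-06) and 1.29 ± 0.12 (2.45-fold, adjusted p = 1.86e-12). At 50 µM IGFBP4 was at 45.3, 44.9 and 50.6 CPM with CKI at 1 mg/mL and at 80.2, 84.5 and 71.5 CPM at 2 mg/mL, a rise of 0.45 ± 0.12 (adjusted p = 0.00301) and 1.20 ± 0.12 (adjusted p = 2.07e-11).

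Libraries with and without liver transcripts occur in 2 of these groups. A term for these transcripts is estimated from these 2 groups alone, because every other group has them in all of its libraries or in none. With CKI at 2 mg/mL and gefitinib at 50 µM, library 2, which lacks them, had 84.5 CPM of IGFBP4 and the others 80.2 and 71.5 CPM. With CKI at 1 mg/mL and gefitinib at 75 µM, library 1, which lacks them, had 60.3 CPM against 63.8 and 63.6 CPM. Of the 9 genes, only IGFBP5 was lowest in the library without liver transcripts in both groups. It was at 0.895 CPM against 1.12 and 1.60 CPM, and at 0.533 CPM against 1.45 and 1.15 CPM, in the same order of groups. Only IGFBP3 was highest in that library in both, at 37.1 CPM against 33.5 and 35.3 CPM, and at 36.2 CPM against 33.6 and 33.0 CPM. RNR2 took 1.39% to 1.56% of counts with CKI at 2 mg/mL and gefitinib at 75 µM against 0.674% to 0.886% in gefitinib at 75 µM alone, and its part in the results for these combinations was not tested.

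IGF1R was at 36.0, 40.049 and 41.6 CPM with CKI at 2 mg/mL and gefitinib at 75 µM, below all 3 libraries of gefitinib alone (55.4 to 62.7 CPM) and overlapping with untreated cells (38.1 to 46.0 CPM). It fell relative to gefitinib by 0.59 ± 0.09 (adjusted p = 2.35e-07), by 0.57 ± 0.09 with CKI at 2 mg/mL on 50 µM (adjusted p = 4.87e-07) and by 0.46 ± 0.09 with CKI at 1 mg/mL on 75 µM (adjusted p = 5.36e-05). With CKI at 1 mg/mL on 50 µM the difference was -0.17 ± 0.09 (adjusted p = 0.125). INSR fell with CKI at 2 mg/mL by 0.39 ± 0.16 on 50 µM (adjusted p = 0.0391) and 0.49 ± 0.16 on 75 µM (adjusted p = 0.00897). The first of these was lost when any 1 of the 6 libraries was left out, and both with a term for liver transcripts (adjusted p = 0.107 and 0.0873). At 1 mg/mL INSR differed by -0.06 ± 0.16 and -0.33 ± 0.16, neither called. The second was called with only the compared libraries (adjusted p = 0.000792). It was also called without the 3 libraries that stood apart by RNR2 (-0.32, adjusted p = 0.0001135).

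IRS2 was higher still when CKI at 2 mg/mL was added. It was at 127, 149 and 137 CPM on 50 µM and at 211, 199 and 191 CPM on 75 µM, the latter above every other library of the series. The rise over gefitinib was 0.53 ± 0.18 (adjusted p = 0.0114; 0.0638 without library 3 of gefitinib at 50 µM) and 0.93 ± 0.18 (adjusted p = 3.2e-05). With CKI at 1 mg/mL the differences were -0.03 ± 0.18 and 0.31 ± 0.18, neither called. IRS1 was called only with CKI at 2 mg/mL on 75 µM (0.35 ± 0.13, adjusted p = 0.0184), at 100.3, 106 and 102 CPM against 75.9, 74.3 and 91.1 CPM. With a term for liver transcripts the value was 0.40 and no longer called (adjusted p = 0.0853). The call was also lost in 3 of the 6 fits that leave out a library.

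The other binding proteins fell in all 4 additions of CKI to gefitinib. IGFBP3 changed by -0.78 ± 0.11, -1.01 ± 0.11, -0.93 ± 0.11 and -1.03 ± 0.11 with CKI at 1 mg/mL on 50 and 75 µM and at 2 mg/mL on 50 and 75 µM, in that order. Its group means in these combinations, 33.8 to 39.0 CPM, may be set beside the untreated mean of 33.1 ± 2.32 CPM (SD). IGFBP5 changed in the same order by -2.43 ± 0.30, -1.81 ± 0.32, -2.36 ± 0.30 and -1.78 ± 0.32, to group means of 1.05 to 1.20 CPM. With a term for liver transcripts the last 3 values for IGFBP5 were -2.48, -3.01 and -2.69, all called. IGFBP6 changed by -0.76, -0.61, -0.59 and -0.41, each ± 0.17, and IGFBP7 by -0.64 ± 0.18, -0.98 ± 0.19, -0.72 ± 0.18 and -0.66 ± 0.19. Adjusted p-values of these 3 genes ran up to 0.034, that of IGFBP6 with CKI at 2 mg/mL on 75 µM. With a term for liver transcripts IGFBP6 (-0.48, adjusted p = 0.115) and IGFBP7 (-0.66, adjusted p = 0.0501) lost their call there. IGFBP6 also lost it in 2 of the 6 fits that leave out a library. IGFBP7 lost its call with CKI at 1 mg/mL on 50 µM without library 2 of that combination (adjusted p = 0.0642).

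Of the 9 genes, 1 rose and 4 fell with CKI at 1 mg/mL on 50 µM (15.5% and 16.2% of all genes), 1 rose and 5 fell at 1 mg/mL on 75 µM (17.3% and 17.3%), 2 rose and 6 fell at 2 mg/mL on 50 µM (26.6% and 27.1%), and 3 rose and 6 fell at 2 mg/mL on 75 µM (28.8% and 29.4%). With library-size scaling the share of all calls that rose went from 48.9% to 71%, from 49.9% to 66.9%, from 49.6% to 60.1% and from 49.5% to 53.9% in these 4 comparisons.

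**Figure D3:**
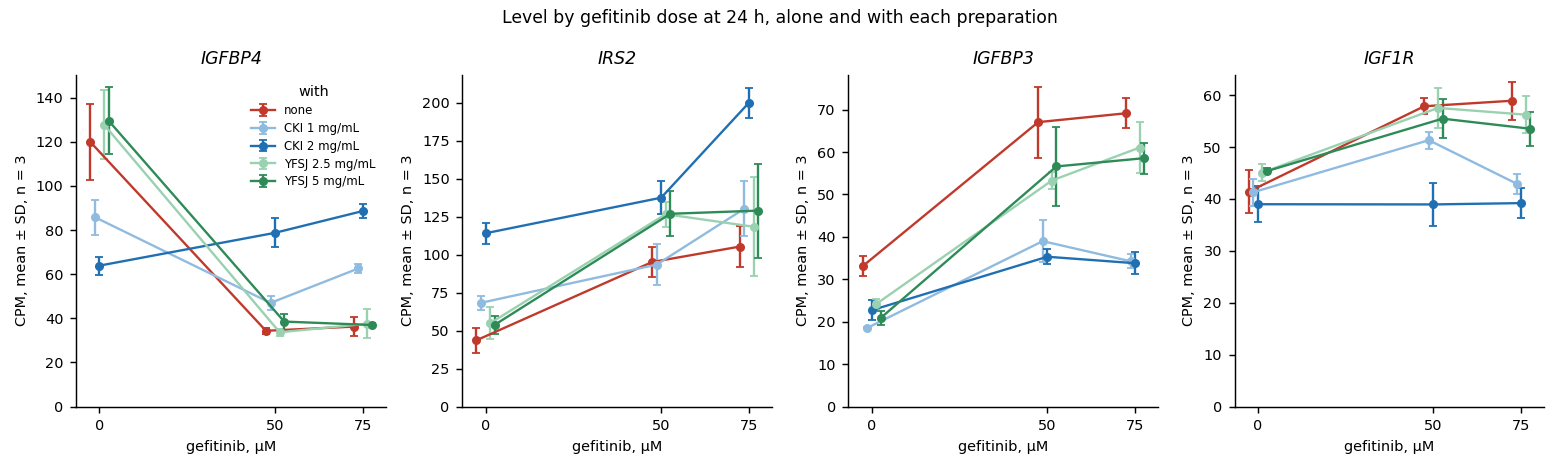
CPM of IGFBP4, IRS2, IGFBP3 and IGF1R (vertical axes, mean ± SD of 3 libraries) against gefitinib dose in µM (horizontal axis) without a preparation and beside each dose of CKI and YFSJ; points are offset sideways for legibility. With CKI at 2 mg/mL, IGFBP4 lies at 63.9, 78.7 and 88.6 CPM at 0, 50 and 75 µM, whereas without a preparation it lies at 119.9, 34.3 and 36.2 CPM.

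The effect of gefitinib on these genes was also compared between cells with and without CKI. In cells with CKI at 2 mg/mL, gefitinib at 75 µM changed IGFBP4 by 0.47 ± 0.12 (adjusted p = 0.00183), where it had changed it by -1.73 ± 0.12 in cells without a preparation. At 50 µM the value beside CKI at 2 mg/mL was 0.30 ± 0.12 (adjusted p = 0.0853, and called with library-size scaling, adjusted p = 0.0344). Beside CKI at 1 mg/mL gefitinib still lowered IGFBP4, by 0.87 ± 0.12 at 50 µM (adjusted p = 7.84e-08) and 0.46 ± 0.12 at 75 µM (adjusted p = 0.00119). IGF1R rose with gefitinib at 50 µM beside CKI at 1 mg/mL (0.31, adjusted p = 0.00371) and was at 0.06, -0.00 and 0.01 in the other 3 settings, none called. INSR rose beside CKI at 1 mg/mL by 0.77 ± 0.16 at 50 µM and 0.55 ± 0.16 at 75 µM, and was at 0.13 and 0.08, not called, beside CKI at 2 mg/mL.

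IGFBP3 rose with gefitinib beside both CKI doses, by 1.07 ± 0.11 and 0.89 ± 0.11 at 1 mg/mL and by 0.64 ± 0.11 and 0.58 ± 0.11 at 2 mg/mL. IRS2 rose beside CKI at 1 mg/mL by 0.45 ± 0.18 at 50 µM (adjusted p = 0.0428, lost in 5 of 6 fits that leave out a library) and 0.93 ± 0.18 at 75 µM, and at 2 mg/mL by 0.81 ± 0.18 at 75 µM (adjusted p = 0.000726). IRS1 fell beside CKI at 1 mg/mL with 50 µM (-0.44, adjusted p = 0.00649; -0.29, adjusted p = 0.0554, with library-size scaling, and adjusted p = 0.0575 without library 3 of the combination) and rose beside CKI at 2 mg/mL with 75 µM (0.66, adjusted p = 0.000175). IGFBP7 fell beside CKI at 1 mg/mL with 75 µM (-0.46, adjusted p = 0.0399), a call lost when any 1 of the 6 libraries was left out. Beside CKI at 1 mg/mL, gefitinib thus raised 4 and lowered 2 of the 9 genes at 50 µM (19.2% and 19.8% of all genes) and raised 3 and lowered 2 at 75 µM (23.6% and 24.2%). Beside CKI at 2 mg/mL it raised 1 at 50 µM (6.31% rose and 4.75% fell over all genes) and 4 at 75 µM (15.6% and 14.6%). The share of all calls that rose went from 49.2% to 71.3%, 49.4% to 64.2%, 57% to 63% and 51.7% to 40.6% with library-size scaling.

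The interaction of CKI and gefitinib, the amount by which the change with both departs from the sum of the changes with each on the log2 scale, was tested as the mean over the 4 dose pairs. It was 1.63 ± 0.12 for IGFBP4 (adjusted p = 4.28e-15), -0.40 ± 0.09 for IGF1R (adjusted p = 0.000538) and -0.58 ± 0.19 for IRS2 (adjusted p = 0.0148). Of the 9 genes, 1 was thus above and 2 below the sum, where 20.0% and 19.5% of all genes were. For IGFBP4 the pairs gave 0.94 and 1.27 with CKI at 1 mg/mL on 50 and 75 µM, and 2.11 and 2.20 at 2 mg/mL; these pairs were tested singly after the data had been seen. IGF1R gave -0.17, -0.45, -0.49 and -0.50 in the same order, the first not called (adjusted p = 0.375). IRS2 gave -0.68, -0.34, -0.86 and -0.46, of which the third was called (adjusted p = 0.0072). INSR was at -0.42 ± 0.17 (adjusted p = 0.0527) in the mean, and called for CKI at 2 mg/mL on 50 µM (-0.64, adjusted p = 0.0255) and on 75 µM (-0.75, adjusted p = 0.00851). IRS1, not called in the mean (0.28, adjusted p = 0.109), was called in the same 2 pairs (0.52, adjusted p = 0.0242, and 0.79, adjusted p = 0.000546). So was IGFBP3 (-0.38, adjusted p = 0.0473, and -0.49, adjusted p = 0.00912; mean -0.25, adjusted p = 0.0852). Of the 9 genes, 1, 2, 6 and 5 were called in the 4 pairs, where 17.7%, 20.9%, 35.9% and 40.3% of all genes were. With library-size scaling the share of calls above the sum went from 51.1% to 39.8% and from 50.5% to 35.2% in the 2 pairs with CKI at 2 mg/mL. The IRS2 call was lost with a term for liver transcripts (-0.49, adjusted p = 0.0904) and without library 1 of the untreated cells (-0.44, adjusted p = 0.102). INSR was called with DESeq2 (adjusted p = 0.0452) and without the 3 libraries that stood apart (-0.44, adjusted p = 2.09e-06).

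**Figure D4:**
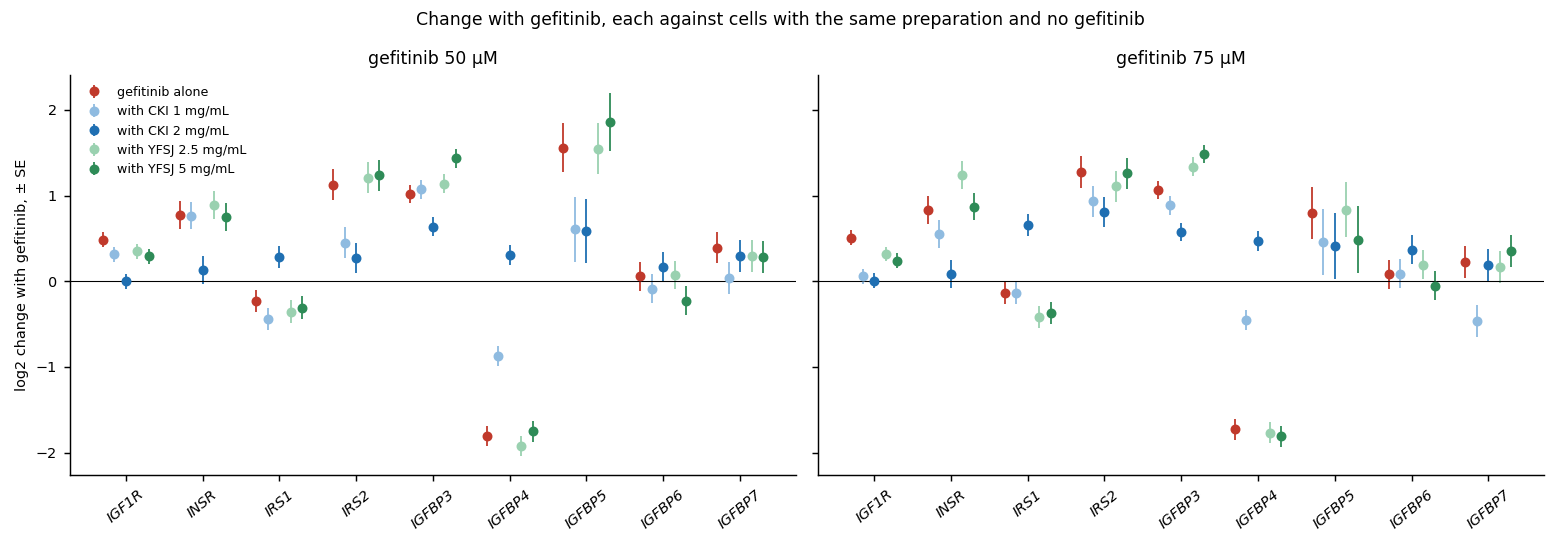
Log2 change with gefitinib ± SE (vertical axis) for the 9 genes (horizontal axis), in cells without a preparation and beside each dose of CKI and YFSJ, with 50 µM and 75 µM in separate panels. For IGFBP4 at 75 µM the values run from -1.81 beside YFSJ at 5 mg/mL to 0.47 beside CKI at 2 mg/mL.

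IGFBP5 was the 1 gene of the 9 called when YFSJ was added to gefitinib. IGFBP4 was at 35.4, 33.2 and 32.4 CPM with YFSJ at 2.5 mg/mL on 50 µM and at 36.1, 37.2 and 37.5 CPM with 5 mg/mL on 75 µM. Its differences from gefitinib alone were -0.03, 0.05, 0.17 and 0.03, each ± 0.12, over 2.5 mg/mL on 50 and 75 µM and 5 mg/mL on 50 and 75 µM. IGFBP5 fell with YFSJ at 5 mg/mL, by 1.07 ± 0.28 on 50 µM (adjusted p = 0.0411) and by 1.68 ± 0.33 on 75 µM (adjusted p = 0.00115). It was at 1.65, 1.85 and 5.38 CPM on 50 µM, where library 3 lay apart from the other two and close to the gefitinib libraries, and at 1.45, 0.725 and 1.17 CPM on 75 µM. The call on 50 µM was lost in a fit of only the compared libraries (adjusted p = 0.39) and in 5 of 6 fits that leave out a library (-0.79, adjusted p = 0.517, without library 1 of the combination); without library 3 it was -1.81.

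YFSJ at 5 mg/mL thus lowered 1 of the 9 genes on each gefitinib dose, where 0.405% of all genes fell and 0.532% rose on 50 µM, and 1.67% fell and 1.79% rose on 75 µM (56.8% of calls on 50 µM rose, 68.3% with library-size scaling). At 2.5 mg/mL edgeR called none of the 9, where 0.0887% of all genes were called on 50 µM and 1.83% on 75 µM, and DESeq2 called none. An unadjusted p below 0.05 was seen for 4 genes on 50 µM (IRS1, IRS2, IGFBP3 and IGFBP5) and for 1 on 75 µM. The latter was INSR, at 49.7, 101 and 51.4 CPM with a difference of 0.45 ± 0.16 (adjusted p = 0.111); without library 2, the one with the high RNR2 share, it was 0.04.

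Beside YFSJ, gefitinib lowered IGFBP4 and raised IGFBP3, IRS2 and both receptors in all 4 dose pairs. IGFBP4 changed by -1.92, -1.77, -1.75 and -1.81 in the order of pairs used above. IGFBP3 rose by 1.14, 1.34, 1.44 and 1.49, IRS2 by 1.21, 1.11, 1.24 and 1.26, IGF1R by 0.35, 0.32, 0.29 and 0.24, and INSR by 0.89, 1.24, 0.75 and 0.87. The INSR value of 1.24 was 0.83 without library 2. IGFBP5 rose by 1.55, 0.84 and 1.86 in the first 3 pairs and was at 0.49 (adjusted p = 0.302) in the last. With a term for liver transcripts the first 2 were 2.47 and 1.75, the second was lost without library 1 (adjusted p = 0.0714) or 3 (adjusted p = 0.0614) of YFSJ at 2.5 mg/mL or library 3 of the combination (adjusted p = 0.0901), and the third was 1.11 without library 3 of that combination. IRS1 fell in all 4 (-0.35, -0.42, -0.31 and -0.37, adjusted p up to 0.0434), and each of these calls was lost without 1 or more single libraries, 3 of them also with library-size scaling. The first 2 IRS1 calls, beside YFSJ at 2.5 mg/mL, were also lost with a term for liver transcripts. The values were then -0.40 (adjusted p = 0.0985) and -0.47 (adjusted p = 0.0528). The last IGF1R call (adjusted p = 0.0207) was lost in 3 of 6 fits that leave out a library. Gefitinib raised 5 of the 9 genes and lowered 2 in the first 3 pairs, and raised 4 and lowered 2 in the last. Over all genes 27.1%, 25.8%, 26.7% and 25.9% rose and 26.8%, 25.8%, 26.2% and 25.4% fell. The share of all calls that rose went from 50.5% to 64.9% and from 50.5% to 62.3% with library-size scaling beside YFSJ at 5 mg/mL. For the YFSJ by gefitinib interaction edgeR called none of the 9, where 1.70% of all genes were called; IGF1R (-0.20 ± 0.09) and IGFBP3 (0.31 ± 0.11) had an unadjusted p below 0.05, and DESeq2 called none. The value for IGFBP4 was -0.05 ± 0.12 (adjusted p = 0.882).

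Over the 16 groups, IGFBP5 had the widest range of means, from 0.752 CPM with CKI at 1 mg/mL to 6.18 CPM with gefitinib at 50 µM, a ratio of 8.22. IGFBP4 ranged from 33.7 to 172 CPM (5.10), IRS2 from 43.6 to 200.1 CPM (4.59) and IGFBP3 from 18.5 to 69.1 CPM (3.73). INSR ranged from 26.8 to 67.3 CPM (2.51), IRS1 from 61.8 to 136 CPM (2.21), IGFBP7 from 14.7 to 32.4 CPM (2.20), IGFBP6 from 92.9 to 169 CPM (1.82) and IGF1R from 38.9 to 58.9 CPM (1.51). The INSR and IGFBP6 maxima rest on library 2 of YFSJ at 2.5 mg/mL with gefitinib at 75 µM, at 101 and 241 CPM, and those of IGFBP4 and IRS1 on the 0 h cells. Without the 3 libraries that stood apart the ratios were 1.97 for INSR, 1.72 for IGFBP6, 3.99 for IGFBP4 and 1.91 for IRS1. The 0 h cells are then library 3 alone, which gives the lowest INSR value (26.7 CPM) and the highest IGFBP4 value (134 CPM). With groups placed in the order of their means, neighbouring groups overlapped in 119 of 135 pairs. Sorting sets the closest groups side by side, so this count cannot show whether the order is graded. A neighbouring pair without overlap is called a step here. IGFBP4 had 4 steps, the uppermost between untreated cells at 24 h and CKI at 2 mg/mL with gefitinib at 75 µM. IRS2 had 2, one of them between CKI at 2 mg/mL with gefitinib at 75 µM and the same CKI dose at 50 µM, and IGFBP3 and INSR had 3 each. IRS1 and IGFBP6 had no step.

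The genes with the most similar pattern were sought by Pearson's r of group means of log2(CPM + 1) over the 16 groups, which share cell line and controls, as a description. IGFBP4 went with CHAF1A, MYBL2 and HAUS7 (r = 0.991 for each); CHAF1A is a chromatin assembly factor used in DNA replication, MYBL2 a cell cycle transcription factor and HAUS7 a subunit of a spindle complex. IRS2 went with TRIB1 (0.954), FLCN (0.946) and RAB11FIP5 (0.942), IRS1 with FAM83A (0.912), ADGRE5 (0.901) and ZNRF2P1 (0.897). For the receptors, IGF1R went with AHNAK2 (0.971), STEAP3 (0.963) and VASH1 (0.955), and INSR with MYO5B (0.966), GOLGB1 (0.957) and ARHGEF5 (0.953). IGFBP3 went with the transcription factor gene SOX4 (0.957), BFSP1 (0.954) and MCHR1 (0.952), IGFBP5 with MAP1LC3C (0.934), KRT86 (0.931) and COL4A4 (0.93), IGFBP6 with PKP3 and RBBP8NL (0.936 each) and CAVIN3 (0.929), and IGFBP7 with BDH2 (0.918), CAPG (0.915) and COL8A2 (0.911). Of the partners named, MCHR1 (1.56 CPM), COL8A2 (0.906 CPM), MAP1LC3C (0.644 CPM) and COL4A4 (0.531 CPM) had low mean levels over all libraries. Among the 9 genes themselves, INSR and IGFBP3 were the most alike (r = 0.885), followed by IGFBP5 and IGFBP7 (0.801) and IGF1R and INSR (0.798), and IGFBP3 and IGFBP4 were the most opposed (-0.803).

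Of 66 other genes of the pathway listed for comparison, 60 passed the filter. The ligands were nearly absent: INS had 0 counts in all 48 libraries, IGF2 at most 1 and IGF1 at most 6. IGF2R, the receptor that clears IGF-II, had a median of 244 CPM and IGFBP2 one of 40.1 CPM. With gefitinib at 75 µM, 21 of the 60 rose and 11 fell, where 27.6% and 27.1% of all genes did, with a median change of 0.13 against 0.02 over all genes. The largest rises were in TRIB3, an inhibitor of AKT induced by stress (2.23 ± 0.10, adjusted p = 4.77e-23), STC2, an inhibitor of the IGFBP protease PAPPA (2.08 ± 0.11, adjusted p = 4.65e-21), and the transcription factor gene FOXO4 (1.58 ± 0.12, adjusted p = 1.13e-15). The largest falls were in IGFBPL1 (-0.95 ± 0.16), STC1, the relative of STC2 (-0.87 ± 0.10), and SOCS1, an inhibitor of cytokine signalling (-0.61 ± 0.23, adjusted p = 0.0222).

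With CKI at 2 mg/mL, 22 of the 60 rose and 7 fell, where 24.1% and 27.1% of all genes did (median 0.05 against -0.01). TRIB3 (1.78 ± 0.10), STC2 (1.60 ± 0.10) and PIK3CD, a PI3 kinase catalytic subunit (1.50 ± 0.17), rose most. HTRA1, a protease that cleaves IGFBP5 (-0.62 ± 0.11), AKT2 (-0.52 ± 0.11) and STC1 (-0.44 ± 0.10) fell most. With YFSJ at 5 mg/mL, 5 rose and 1 fell, where 4.28% and 2.20% of all genes did (median 0.08 against -0.01): STC2 by 1.28 ± 0.10 (adjusted p = 3e-12), PIK3CD by 0.83 ± 0.18 and RPTOR, a part of the mTOR complex, by 0.53 (adjusted p = 0.021) were the largest rises and FOXO6 the fall (-0.68, adjusted p = 0.0378).

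When CKI at 2 mg/mL was added to gefitinib at 75 µM, 20 of the 60 rose and 18 fell, where 28.8% and 29.4% of all genes did, with a median of -0.08 against -0.01; these shares are close to the background. The rises include IGFBP1, named after its values were seen, which had at most 30 counts and is made by liver; all 3 libraries of this combination carry liver transcripts. Of the 8 measured IGFBP proteases and their regulators, 1 rose and 6 fell, against the same 28.8% and 29.4% of all genes, with a median of -0.74. Among the called genes of all 60 with at least 5 CPM in the higher group, HTRA1 fell most (-1.46 ± 0.11, adjusted p = 3.98e-15). It was followed by CTSD, the lysosomal protease cathepsin D (-0.93 ± 0.16), and IGF2R (-0.80 ± 0.11), which is not among the 8. Within the same limit SOCS1 (1.69 ± 0.22), the AKT phosphatase gene PHLPP2 (1.23 ± 0.14) and the adaptor gene SH2B2 (0.91 ± 0.23) rose most. YFSJ at 5 mg/mL added to gefitinib at 75 µM raised 2 and lowered 1 of the 60, where 1.79% and 1.67% of all genes rose and fell (median -0.05 against 0.00), with STC2 up by 0.53 ± 0.10 (adjusted p = 0.00104) and FOXO6 down by 1.13 ± 0.20 (adjusted p = 0.000453) as the largest in each direction.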

How the data were processed

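The 48 libraries were made from total RNA with an unstranded paired-end protocol, per the labels' protocols. The authors deposited a table of raw gene counts; reads were trimmed with Trim Galore 0.4.2 and aligned with STAR 2.5.3a to hg19, and edgeR is named, per the submitters' processing notes. The counting tool, annotation and strand setting are not given in the sources used here. Counts were tested with edgeR 4.0.16 in R 4.3.3 (limma 3.58.1): genes were kept by filterByExpr (minimum count 10, minimum total 15), which left 15789 genes holding 99.97% of counts; libraries were scaled by TMM; 1 mean per group was fitted over all 16 groups, leaving 32 residual degrees of freedom; the quasi-likelihood test was robust, and p-values were adjusted by Benjamini-Hochberg over all genes tested. CPM are counts divided by the scaled library size. Totals of 16428398 to 26264162 counts limit the precision of IGFBP5 most. Replicate libraries were not identical.

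The 9 genes and the lists of pathway and marker genes were chosen with earlier results of these data known. Text names all 9 genes; from the pathway lists, the 3 called genes with the largest rise and fall and at least 5 CPM in the higher group, in 5 comparisons; and the 3 genes most alike to each of the 9. Groups share replicate numbers in their labels. Same-numbered libraries deviated together, with all 3 correlations above 0.1, in 2 of 26 comparisons, the dose comparisons of CKI and of YFSJ, and the replicate block changed no call of the 9 genes there. Alternatives were DESeq2 1.42.0, size factors (RLE), library-size scaling, no filter, the replicate block, only the compared libraries, a stricter threshold, a term for liver transcripts, and leaving out libraries. On counts simulated for gefitinib at 75 µM against untreated cells (15337 genes), 81 of 100 genes changed 1.5-fold and 96 of 100 changed 2-fold were recovered, and 6 of 183 calls were false. The simulation gave every gene the same spread and left most genes unchanged, unlike the real comparison. Its rates therefore check the code and need not hold for these data. Promoter sequences came from RefSeq, GRCh38.p14, and transcript lengths from GENCODE on GRCh38, another build than that of the counts.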

Additional observations from a re-analysis of the deposited data

Results flagged for a closer look

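The change with gefitinib differed between cells with and without CKI for 3 of the 9 genes, by a test of the interaction itself (edgeR, Benjamini-Hochberg, mean of the 4 dose pairs, n = 3 libraries per group). In the same test 20.0% of all genes lay above and 19.5% below the sum of the single-agent changes, so the count does not set the 9 genes apart. IGFBP4 departed from the sum of the single-agent changes by 1.63 ± 0.12 on the log2 scale (adjusted p = 4.28e-15). IGF1R departed by -0.40 ± 0.09 (adjusted p = 0.000538), and IRS2 by -0.58 ± 0.19 (adjusted p = 0.0148), a call lost with a term for liver transcripts (adjusted p = 0.0904) and without library 1 of the untreated cells at 24 h (adjusted p = 0.102).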

How the results depend on the processing

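The 264 values compared between settings cover the 9 genes, but the 4 single dose pairs of CKI and gefitinib only for IGF1R, IRS2 and IGFBP4. The calls of INSR, IRS1 and IGFBP3 in single pairs were not checked in this way. Over the 264 values the size factors of DESeq2 (RLE) changed no call and the replicate block, an unpaired number in most comparisons, changed 2: IGFBP7 was called from 0 h to 24 h (0.48, adjusted p = 0.0289) and with gefitinib at 50 µM (0.39, adjusted p = 0.0347). DESeq2 added 4 calls; no filter ended 6; library-size scaling ended 9 and added 8; fitting only the compared libraries ended 5 and added 17; a threshold of 0.01 ended 18. The term for liver transcripts ended 10 and added 1, and leaving out the 3 libraries that stand apart added 13; that last setting and the single dose pairs were chosen after seeing the data. Leaving out 1 library at a time changed the sign of no call, ended 69 and added 13 over 2034 values. From 0 h to 24 h, 5 members were called, 1 with only the compared libraries, 1 with only library 3 at 0 h (where INSR turned from -0.64 to 0.034), and 2 to 6 without 1 library; over all genes these calls numbered 3980, 93 and 145. With YFSJ at 2.5 mg/mL 1 was called, 2 with DESeq2, with only the compared libraries, with library-size scaling and without the 3 libraries, 0 with the liver term and at 0.01, and 0 to 2 without 1 library. With YFSJ at 5 mg/mL 2 were called, 1 at 0.01 and 1 to 2 without 1 library. Between the CKI doses 4 were called, 2 at 0.01 and 2 to 4 without 1 library. With YFSJ added to gefitinib 2 were called over the 4 pairs, 1 with only the compared libraries, 1 at 0.01 and 1 to 3 without 1 library. The interaction of CKI and gefitinib gave 3, 6 with only the compared libraries and 5 without the 3 libraries; the cause of these differences was not tested. The depth limits IGFBP5, at 12 to 130 counts per library.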
